A study of Mus musculus with 2 samples.

Results

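The mir-34 and mir-449 family of microRNAs (miRNAs, small regulators that pair with messenger RNAs and silence them) was followed in the mouse hippocampus. Its members were taken by gene name from the GENCODE M21 annotation: Mir34a, Mir34b, Mir34c, Mir449a, Mir449b and Mir449c, 6 of 2202 annotated miRNA genes. Each member had a row in the counts of both libraries. The data were small RNA libraries (inserts under 30 nucleotides) from tissue labelled as layer of hippocampus, and the label does not say which layer. The source was 36-day-old female mice of the F1 hybrid strain B6CASTF1/J, a cross of the inbred C57BL/6J with the wild-derived CAST/EiJ. There was 1 group, with 1 library for each of biological replicates 1 and 2, and no treatment, genotype or second tissue. The labels give different biosample entries but the same donor entry for the replicates, so whether they are separate animals is not settled, and part of the spread may be technical.

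All members are processed from hairpin precursors, and the 5′ arm of the family carries a common seed, the bases near its 5′ end that pair with target messenger RNAs. Mir34a is a known target gene of the tumour suppressor p53 and is transcribed from its own locus in many tissues, brain included. Mir34b and Mir34c come from a common primary transcript, and Mir449a, Mir449b and Mir449c from an intron of Cdc20b. Both clusters are best known from epithelia that carry motile cilia, where they act redundantly in the formation of multiple cilia and repress the centriolar protein gene Ccp110. In the brain such cells are the ependyma and the choroid plexus, which border the ventricles next to the hippocampus.

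The 5′ sequences are shown because they define the family and set its branches apart. Capitals mark the seed, bases 2 to 8, and the sequences are from RefSeq (assembly GRCm38.p6, the assembly also called mm10).
mmu-miR-34a-5p: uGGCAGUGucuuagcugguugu
mmu-miR-34b-5p: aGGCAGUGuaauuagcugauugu
mmu-miR-449a-5p: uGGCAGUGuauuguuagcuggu
mmu-miR-449c-5p: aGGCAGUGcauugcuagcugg

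All 4 carried the seed GGCAGUG, and 0 other mature sequences among the 1738 of the RefSeq table had it. The mature sequences miR-34c-5p and those of Mir449b were not among the sequences searched, so they were not compared here. Beyond the seed the match went on in some pairs and ended in others. From base 2, miR-34b-5p and miR-449a-5p were identical through base 10, miR-34a-5p was identical to each of these through base 9, and miR-449c-5p was identical to the other 3 through base 8. Over a whole-length alignment, miR-34a-5p and miR-34b-5p shared 82.6% of the aligned positions, miR-449a-5p and miR-449c-5p 81.8%, and miR-34a-5p and miR-449a-5p 68.2%.

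The 3′ arms did not share a seed across the family. The Mir34b and Mir34c arms had the seed AUCACUA in common, and 0 other mature sequences of the table had it.
mmu-miR-34b-3p: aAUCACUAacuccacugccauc
mmu-miR-34c-3p: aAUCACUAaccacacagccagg
The 3′ arms of Mir34a, Mir449a and Mir449c each had a seed of their own.

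The hairpins are printed for the members that set the branches apart, because reads were counted per hairpin. Capitals mark the annotated 5′ and 3′ mature arms, whose reads the counts do not tell apart.
Mir34a: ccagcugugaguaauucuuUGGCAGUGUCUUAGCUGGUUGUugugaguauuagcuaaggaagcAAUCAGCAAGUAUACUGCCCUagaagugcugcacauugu
Mir34b: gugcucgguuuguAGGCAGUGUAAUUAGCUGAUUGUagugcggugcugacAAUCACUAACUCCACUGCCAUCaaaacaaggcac
Mir449a: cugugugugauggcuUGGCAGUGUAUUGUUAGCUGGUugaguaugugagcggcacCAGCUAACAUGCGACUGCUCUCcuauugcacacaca
Mir449c: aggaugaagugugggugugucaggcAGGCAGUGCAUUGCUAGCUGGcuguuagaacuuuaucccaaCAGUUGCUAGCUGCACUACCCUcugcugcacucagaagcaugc

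The 6 genes lie at 3 places in the genome (mm10, GENCODE M21). Mir34a (ENSMUSG00000065493.1) is at chr4:150068454-150068555 on the plus strand, and its last 17 bases overlap an exon of the transcript Gm37795 on the same strand. Mir34b (ENSMUSG00000065492.1, chr9:51103562-51103645) and Mir34c (ENSMUSG00000065587.1, chr9:51103034-51103110) lie 451 bases apart on the minus strand, opposite an intron of Btg4. Mir449c (ENSMUSG00000076146.1, chr13:113035983-113036091), Mir449b (ENSMUSG00000078027.1, chr13:113037419-113037498) and Mir449a (ENSMUSG00000065575.1, chr13:113037534-113037624) lie in this order in an intron of Cdc20b on the same strand, with 1327 and 35 bases between them. The hairpins shared only short exact stretches with each other and with other annotated miRNA hairpins. The longest stretch that any member's hairpin shared with another member was 11 bases, and with any other annotated miRNA hairpin 14 bases, between Mir449a and Mir679. Placement of reads with mismatches was not tested, so separation of the members' reads rests on exact stretches only. Copies outside annotated miRNA genes were not analysed here.

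Sense reads on miRNA genes numbered 3644157 in replicate 2 and 2928141 in replicate 1, and levels are given as counts per 1000000 of these reads (CPM). Reads with several places in the genome, 45.8% of all reads in replicate 2 and 38.9% in replicate 1, are outside these counts. The tissue label was checked against neuron-enriched miRNAs. Of 14 genes, 11 were detected, that is had at least 10 reads in both libraries, as 17.1% of all miRNA genes had. Of the 14, 0 were without a read in both libraries, beside 1479 of all 2202 miRNA genes. Mir137 was at 12631 CPM in replicate 2 and 9112 CPM in replicate 1. The 3 undetected genes were Mir124a-1, Mir124a-2 and Mir124a-3, of a miRNA known as abundant in neurons. They had 8, 0 and 1 reads in replicate 2 and 8, 4 and 4 reads in replicate 1. Reads that fit more than 1 of these genes are outside the counts, so these values do not give the level of that miRNA. Each read is a short fragment of a hairpin, so levels were not scaled by hairpin length. In bulk tissue, fewer cells of a type and less of a miRNA per cell cannot be told apart.

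Mir34a and Mir34c were the abundant members, Mir449a and Mir34b were lower, and Mir449b and Mir449c were at the limit of detection. Of the 6 members, 4 reached 10 reads in both libraries, which is the rule for a detected gene here and was met by 17.1% of all miRNA genes. The whole family held 884 CPM in replicate 2 and 1365 CPM in replicate 1 (1125 ± 340 CPM, SD, n = 2), which is 0.0884% and 0.137% of the sense reads.

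Mir34a, the p53-responsive single gene, had 1186 reads or 325 CPM in replicate 2 (exact Poisson 95% interval 307 to 345) and 2375 reads or 811 CPM in replicate 1 (779 to 844). The level averaged 568 ± 343 CPM (SD, n = 2), rank 129 by mean CPM of all miRNA genes. The libraries differed by more than the SD of any other member, and the counting intervals of the libraries lay far apart. Such intervals cover counting error only and not the spread between libraries, and no molecular identifiers were used here.

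Mir34c, the abundant gene of its cluster, had 1624 reads or 446 CPM in replicate 2 (424 to 468) and 1233 reads or 421 CPM in replicate 1 (398 to 445). Its level of 433 ± 17.4 CPM (SD, n = 2) was rank 140, close below Mir34a by mean. The spread of Mir34a covered the level of Mir34c, so the order of these neighbours was not settled by the means. Mir34b, from the same transcript, had 119 reads or 32.7 CPM in replicate 2 (27.1 to 39.1) and 24 reads or 8.20 CPM in replicate 1 (5.25 to 12.2), and averaged 20.4 ± 17.3 CPM (SD, n = 2), rank 277. Mir34b was below Mir34c in both libraries by more than the spread of either gene.

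Mir449a, the gene of the Cdc20b intron with reads in number, had 293 reads or 80.4 CPM in replicate 2 (71.5 to 90.2) and 363 reads or 124 CPM in replicate 1 (112 to 137). Its mean was 102 ± 30.8 CPM (SD, n = 2), rank 201, above Mir34b and below Mir34c in each library. Mir449b had 0 reads in both libraries, and Mir449c had 0 reads in replicate 2 and 2 reads in replicate 1. Where no read was seen, a limit of 3 reads was used, that is 0.823 CPM in replicate 2 and 1.02 CPM in replicate 1. Neither gene was distinguishable from 0 at this depth, and both lie in the same intron as Mir449a, whose reads exceeded Mir449b by at least 97.7-fold in replicate 2 and at least 121-fold in replicate 1 (against 3 reads per library).

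**Figure D1:**
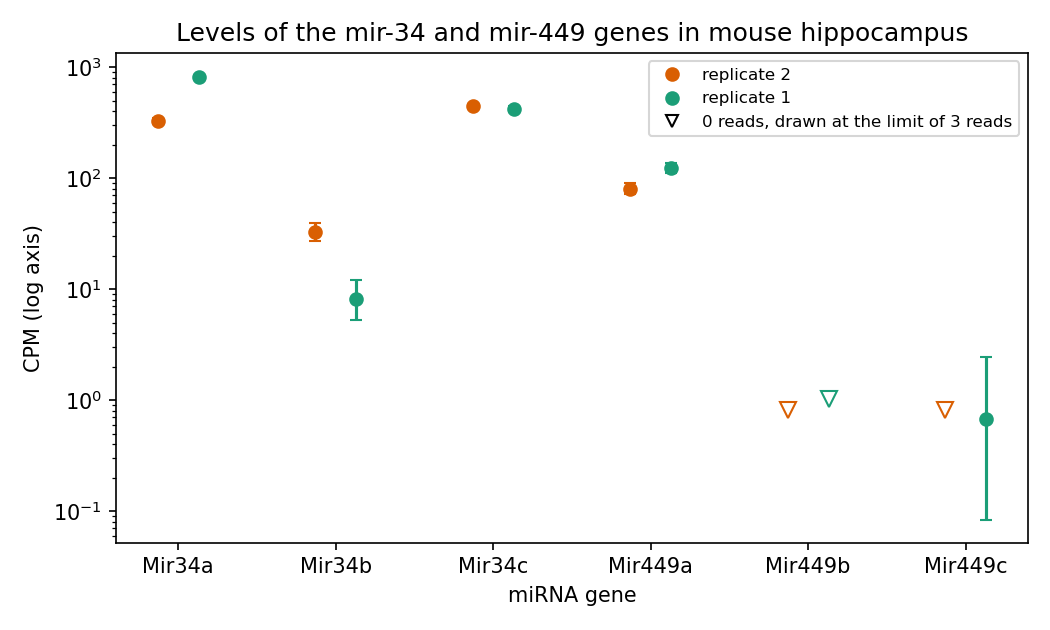
CPM of each gene (log axis) in replicate 2 (orange) and replicate 1 (green), with exact Poisson 95% intervals as bars and open triangles for 0 reads, drawn at the limit of 3 reads. Mir34a and Mir34c lie between 325 and 811 CPM, Mir449a at 80.4 and 124 CPM, Mir34b at 32.7 and 8.20 CPM, and Mir449b and Mir449c near the limit.

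Set against the cilia-linked clusters, Mir34a was the smaller part of the family in replicate 2 and the larger part in replicate 1. It held 36.8% of the family's reads in replicate 2 (35.1% to 38.5%, an exact Clopper-Pearson interval at 95%) and 59.4% in replicate 1 (57.9% to 60.9%). Mir34b and Mir34c together held 54.1% in replicate 2 (52.4% to 55.8%) and 31.4% in replicate 1 (30.01% to 32.9%). The Mir449 genes held 9.09% in replicate 2 (8.12% to 10.1%) and 9.13% in replicate 1 (8.26% to 10.1%). The share of the Mir449 genes thus differed by less than its counting error, while the shares of Mir34a and of the Mir34b and Mir34c cluster moved past each other. These shares do not depend on the library totals.

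**Figure D2:**
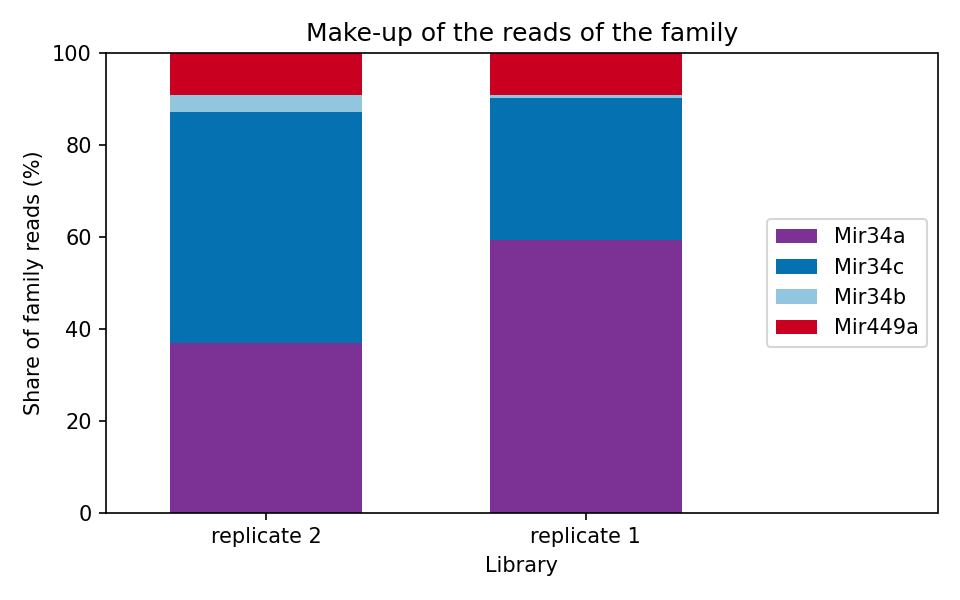
Share of the family's reads (percent, bars start at 0) held by Mir34a, Mir34c, Mir34b and Mir449a in replicate 2 and replicate 1; Mir449b and Mir449c are too few to draw. The Mir34a part is 36.8% in replicate 2 and 59.4% in replicate 1, and the Mir449a part is 9.09% and 9.08%.

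The ratio of Mir34a to Mir34c was 0.730 in replicate 2 (exact 95% interval 0.677 to 0.788) and 1.93 in replicate 1 (1.80 to 2.07), so the libraries gave opposite orders. Mir34a exceeded Mir449a 4.05-fold in replicate 2 (3.56 to 4.62) and 6.54-fold in replicate 1 (5.86 to 7.33), and it exceeded Mir34b 9.97-fold in replicate 2 (8.25 to 12.1) and 99.0-fold in replicate 1 (66.3 to 155). The order of Mir34a above Mir449a and Mir34b therefore held in both libraries, and the size of the gap did not. Against Mir449b, which had no reads, Mir34a was at least 395-fold higher in replicate 2 and at least 792-fold higher in replicate 1, computed against 3 reads per library. Against Mir449c it was at least 395-fold higher in replicate 2, and the ratio in replicate 1, which rests on 2 reads of Mir449c, was 1188 (328 to 9811).

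Added together, the clustered genes were at nearly the same level in both libraries. They summed to 559 CPM in replicate 2 and 554 CPM in replicate 1 (556 ± 3.37 CPM, SD, n = 2), and the ratio of these sums was 1.01 (0.944 to 1.08). The sum hides parts that moved apart. The Mir34b and Mir34c cluster stood 1.11-fold higher in replicate 2 (1.04 to 1.20), at 478 CPM beside 429 CPM in replicate 1. The Mir449 cluster was at 80.4 CPM in replicate 2, against 125 CPM in replicate 1, which gives 0.645 (0.551 to 0.754).

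The clustered genes did not keep a fixed proportion to each other either. There were 13.6 reads of Mir34c per read of Mir34b in replicate 2 (11.3 to 16.6) and 51.4 in replicate 1 (34.4 to 80.5), although these genes share a primary transcript. The odds of a Mir34c read against a Mir34b read were 3.76 times higher in replicate 1 than in replicate 2 (exact 95% interval 2.39 to 6.14). Mir34c exceeded Mir449a 5.54-fold in replicate 2 (4.89 to 6.30) and 3.40-fold in replicate 1 (3.02 to 3.83). Among the clustered genes the order from Mir34c through Mir449a to Mir34b was the same in both libraries.

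To ask which members differed between the libraries, the reads of every miRNA gene with at least 10 reads in all (474 genes) were put to an exact binomial test, two-sided, with the library totals setting the expected split and p-values adjusted by Benjamini-Hochberg. It sets library against library rather than condition against condition, and counting error is its only source of noise. It called 3 of the 4 testable members, where 58.0% of all tested genes were called. Of the members, 1 was called higher in replicate 2 (background 31.6%) and 2 were called lower in replicate 2 (background 26.4%).

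Mir34a was lower in replicate 2 at a ratio of 0.401 (exact 95% interval 0.374 to 0.430), that is 2.49-fold higher in replicate 1, with an adjusted p of 1.37e-154 by the exact binomial test. Of 470 tested genes with reads in both libraries, 15.5% differed by as much or more in either direction. Mir34b was 3.98-fold higher in replicate 2 (2.55 to 6.46, adjusted p = 1.03e-11 by the exact binomial test), a size that 6.60% of genes reached. Mir449a was at a ratio of 0.649 (0.554 to 0.759, adjusted p = 1.10e-07 by the exact binomial test), and 38.7% of genes differed by as much. Mir34c was at a ratio of 1.06 (0.982 to 1.14) that was not called (adjusted p = 0.197 by the exact binomial test), and 91.1% of genes differed by as much or more. The median difference over the 470 genes was 1.39-fold in either direction, so Mir34a, Mir34b and Mir449a differed more than the middle gene and Mir34c less. The 470 include genes with few reads, whose ratios carry more counting error. Of them, 295 had a mean count of at least 50, as all testable members had. Over these 295 the median was 1.27-fold, and 86.8% lay within 2-fold.

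Over the 4 testable members the median log2 ratio of replicate 2 to replicate 1 (pseudocount of 1 CPM) was -0.27, beside 0.04 over all tested genes. Its sign describes the members' balance only, since they lay on both sides of 0.

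**Figure D3:**
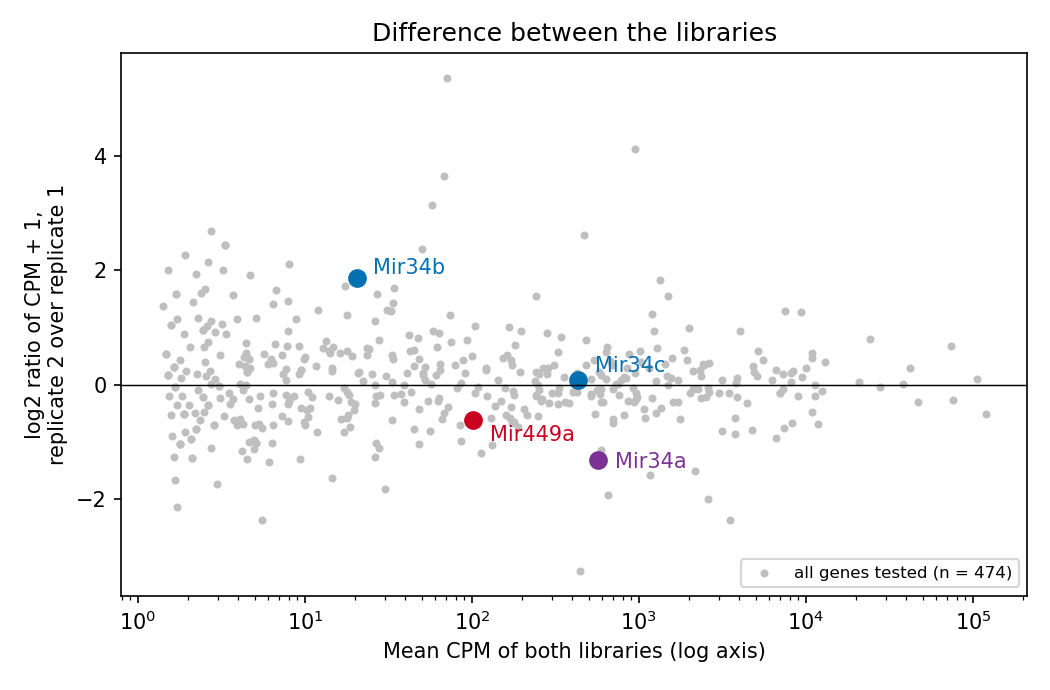
Log2 ratio of CPM + 1, replicate 2 over replicate 1, against mean CPM (log axis) for 474 tested miRNA genes (grey) and the 4 testable family members (coloured by cluster). Mir34b lies above 0, Mir34c near 0, and Mir449a and Mir34a below 0, with Mir34a the lowest member.

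Markers of the choroid plexus, an epithelium that bears cilia, differed strongly between the libraries. In that list, chosen with earlier results known, 6 of 6 testable genes were called higher in replicate 2 (background 31.6%), and the summed level was 4105 CPM in replicate 2 and 731 CPM in replicate 1. Mir204, which lies in Trpm3 and is highly expressed in the choroid plexus, was 3.55-fold higher in replicate 2 (3.37 to 3.74), and Mir1298, which lies in the serotonin receptor gene Htr2c, was 17.7-fold higher (15.7 to 20.0). The genes Mir1298, Mir1264, Mir448, Mir1912 and Mir764 all lie in Htr2c, which neurons also express, and are no independent markers of each other. Mir211, which lies in Trpm1, had 4 reads in replicate 2 and 3 in replicate 1. No listed gene was at 0 in both libraries, and Mir1911 was not analysed here.

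The cilia-linked members did not move as a group with this list. Mir34b was higher in replicate 2 with it, Mir449a was lower there, and Mir34c was at a ratio of 1.06. The part of these markers in the members' differences was not tested.

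The erythroid list was lower in replicate 2, as Mir34a was. Its 3 genes, Mir451a, Mir144 and Mir486, are known from red blood cells. All 3 were called lower in replicate 2 (background 26.4%), and summed to 340 CPM in replicate 2 and 1176 CPM in replicate 1. Their positions were not compared here. Neighbouring genes may share a transcript, so the 3 calls are not counted as independent markers of each other. Mir451a, the defining gene of that list, was 3.85-fold higher in replicate 1. None of the 3 was at 0 in either library, and in counts without strand 1 of them could be tested and was called lower too. The values stand beside the level of Mir34a, and the part of blood in the level of Mir34a was not tested.

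Other miRNAs linked to p53 moved in both directions. Of 9 annotated genes in that list, 7 were testable, 3 were called higher in replicate 2 (background 31.6%) and 1 was called lower (background 26.4%), with a median log2 ratio of 0.21. Positions within this list were not compared here, so its calls are not counted as independent of each other. Mir143 and Mir145a, a smooth muscle and pericyte pair whose processing p53 is known to promote in human cells, were 1.35-fold (1.32 to 1.38) and 1.16-fold (1.04 to 1.30) higher in replicate 2. Mir192, a p53-induced gene in human cells, was 3.21-fold higher in replicate 2 (1.63 to 6.90), on 44 reads there against 11 in replicate 1. Mir107, in an intron of Pank1, was 5.18-fold higher in replicate 1. Mir194-2, Mir200c and Mir141 were tested and not called, Mir215 had 2 reads in replicate 2 and 1 in replicate 1, Mir194-1 had 0 in both, and Mir605 was not analysed here. With TMM scaling, or with the most abundant gene taken out of the totals, the count called higher in replicate 2 was 2.

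**Figure D4:**
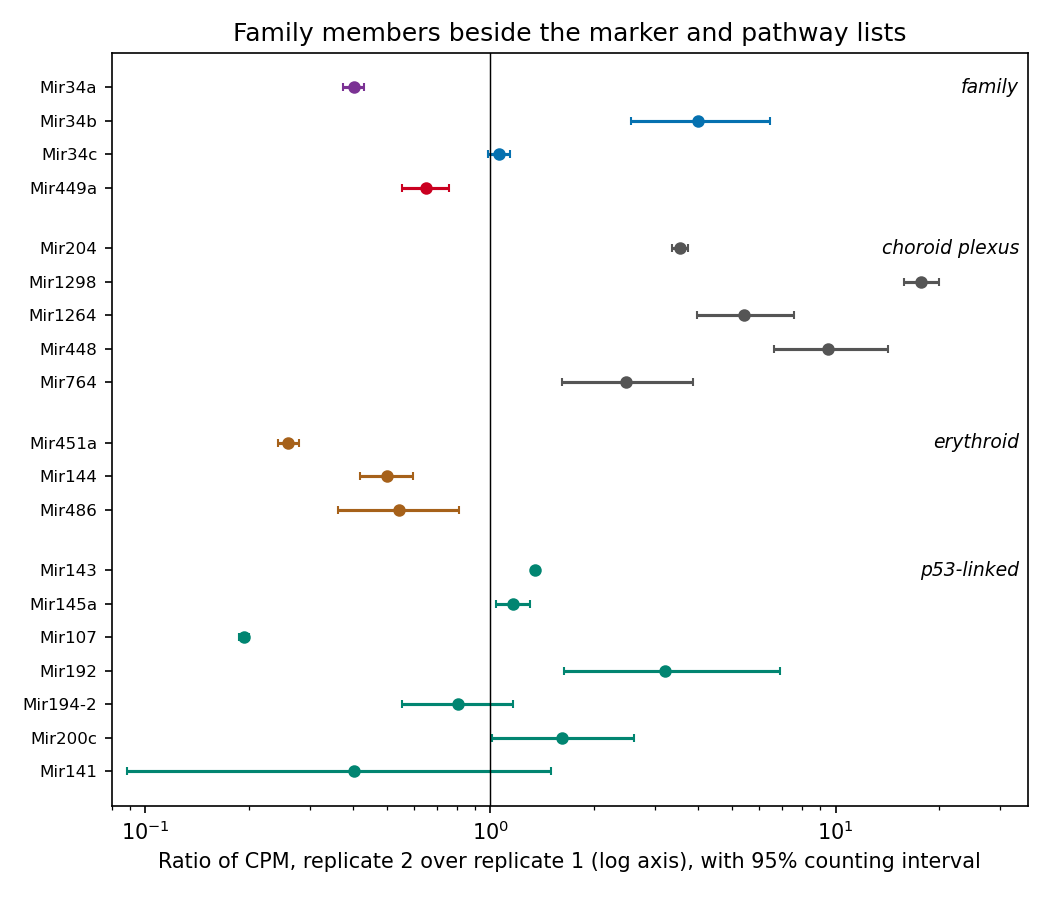
Ratio of CPM, replicate 2 over replicate 1 (log axis), with exact 95% counting intervals, for the 4 testable members and the testable genes of the choroid plexus, erythroid and p53-linked lists; Mir1912, with 0 reads in replicate 1, is not drawn. The choroid plexus genes lie to the right of 1, the erythroid genes to the left, and the family and the p53-linked genes on both sides.

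The genes nearest to each member were taken by distance over log2(CPM + 1) in the 2 libraries. This is a likeness of levels over 2 points only. The levels leave out reads with several places in the genome, so for a gene with further copies they may lie below the level of its miRNA. Nearest to Mir34a were Mir15a, at 368 CPM in replicate 2 and 815 CPM in replicate 1, and Mir451a, at 270 CPM in replicate 2 and 1039 CPM in replicate 1. Nearest to Mir34c were Mir16-1, at 457 CPM in replicate 2 and 398 CPM in replicate 1, and Mir501, at 409 CPM in replicate 2 and 445 CPM in replicate 1. Nearest to Mir449a were Mir669o and Mir377, and nearest to Mir34b were Mir26a-1 and Mir764. Of these 8 genes, 0 were members of the family. The family is 6 of 2202 miRNA genes, so this count says little about how alike its members are.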

How the data were processed

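The authors deposited raw counts, whole reads for each miRNA gene with no normalization, as 3 unnamed columns for each library. They were taken as unstranded, sense and antisense counts, in this order, since nearly all stranded reads on genes stood in the second. The assembly mm10 and GENCODE M21 are named in notes deposited with the counts, but no source used here names the aligner. The 4 rows that name no gene, 65.3% of reads in replicate 2 and 69.5% in replicate 1, were left out of totals and tests. All 2202 identifiers matched GENCODE M21. RefSeq gave hairpins of 5 members, all 5 at the same coordinates as in GENCODE, and 9 mature sequences of 5 members.

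Sense counts were divided by their library total to give CPM. Ratios between libraries have exact binomial intervals at 95%, which, like the Poisson and Clopper-Pearson intervals, cover counting error only. The minimum for the binomial test was 10 reads over both libraries and its threshold an adjusted p of 0.05. With 1 library on each side no edgeR test between them could be run. The libraries are not duplicates of each other: a chi-square of their counts came to 390 per degree of freedom. The binomial test was run on simulated data whose only noise was counting error. That check therefore does not cover the spread between the real libraries. Alternatives were counts without strand, TMM scaling (edgeR 4.0.16), DESeq2 1.42.0 size factors, totals without the most abundant gene, other count filters and leaving out either replicate.

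The members and the lists (neuron, choroid plexus, epithelial and sensory, erythroid, p53-linked) were chosen with earlier results of these data known. The text names the 6 members, any other miRNA with a member's seed, overlapping genes, list genes, and the 2 genes nearest in level to each member with a mean count of at least 10. Tests ran in scipy 1.17.1 and statsmodels 0.14.6 under Python 3.11.15, alignments in Biopython 1.88, scaling in R 4.3.3 and plots in matplotlib 3.10.9.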

Additional observations from a re-analysis of the deposited data

Results flagged for a closer look

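Antisense reads, which enter no comparison above, were seen at Mir34b above the 3 reads that a count of 0 allows. There were 6 antisense reads beside 119 sense reads in replicate 2 (4.80% of the reads at the gene) and 6 beside 24 in replicate 1 (20.0%). Mir34b was the only member with any antisense read in either library, and it has no miRNA gene on the opposite strand, where Btg4 lies. Of 2138 genes without a miRNA gene opposite, 6 had antisense reads above that limit in each library.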

How the results depend on the processing

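The calls of Mir34a, Mir34b and Mir449a and the lack of a call for Mir34c kept their side of the threshold and their direction under counts without strand, TMM and DESeq2 scaling, totals without the most abundant gene, no filter on low counts and a summed count of at least 100. On the log2 scale, replicate 2 over replicate 1, the ratio ranged from -1.39 to -1.32 for Mir34a, from 1.73 to 1.99 for Mir34b, from 0.01 to 0.08 for Mir34c (adjusted p by the exact binomial test from 0.160 to 0.882) and from -0.69 to -0.62 for Mir449a. Over all genes, 232 to 275 were called. The mean CPM of Mir34c, 433, was 468 in counts without strand and 493 with totals without the most abundant gene, because these totals are smaller. The share of Mir449a, 9.09%, was 9.07% in counts without strand. Of 123 alternative values for 28 results, 117 stayed within their limits. Averaged as a geometric mean over the libraries, the ratio of Mir34a to Mir34c was 1.19 (0.730 to 1.93 when either replicate was left out), to the Mir34b and Mir34c cluster 1.13 (0.680 to 1.89) and to all clustered genes 0.924 (0.583 to 1.46). Each of these crossed 1, so 1 library decides its direction. Ratios between libraries cannot be had with a replicate left out. No paired analysis was possible because there is a single group. With 2 libraries, the precision of every level rests on 2 values, and Mir449b and Mir449c are limited by depth.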

Other observations

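Epithelial and sensory miRNAs were low in replicate 1, and most of those testable were called higher in replicate 2. In this list the mir-200 family is typical of epithelia, and Mir182 and Mir183 of sensory cells. Of 8 genes, 4 were detected (background 17.1%) and 7 were testable. Of the testable genes, 5 were called higher in replicate 2 (background 31.6%) against 0 lower. The positions of these genes were not compared here. Neighbouring genes may share a transcript, so the calls are not counted as independent markers of each other. The summed levels were 366 CPM in replicate 2 and 58.7 CPM in replicate 1. Replicate 2 held 509 reads of Mir182 and 463 of Mir183, against 7 and 27 in replicate 1, so these genes made up most of the sum in replicate 2. Mir200b was 3.15-fold higher in replicate 2 (2.19 to 4.63), Mir200a 3.92-fold (1.80 to 9.70) and Mir429 1.58-fold (1.13 to 2.22). Mir200c, at a ratio of 1.61 (1.01 to 2.60), and Mir141, with 4 reads in replicate 2 and 8 in replicate 1 (ratio 0.402), were not called, and Mir96 had 5 reads in replicate 2 and 0 in replicate 1. The neuron list had 9 of 12 testable genes called higher in replicate 2 (background 31.6%) and 2 lower (background 26.4%).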
